A study of Mus musculus with 8 samples.

Results

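The rod phototransduction cascade was followed in the postnatal mouse retina through 9 genes, chosen by symbol for their place in the cascade: *Gnat1*, *Gnb1*, *Gngt1*, *Pde6a*, *Pde6b*, *Pde6g*, *Cnga1*, *Cngb1* and *Sag*. They were 9 of the 54532 genes in the deposited table, and all 9 were among the 17998 genes that passed the filter on low counts. Bulk RNA-seq was performed on 4 *Mettl3*-CKO retinal samples, from *Six3-Cre*+; *Mettl3* floxed/floxed pups, and on 4 control samples from their littermates, labelled postnatal day 7. *Mettl3* encodes the catalytic subunit of the methyltransferase that places N6-methyladenosine on mRNA, and *Six3-Cre* deletes the floxed allele in retinal progenitors. The study describes the deletion in the central retina, whereas the libraries were made from retinas with no region named, and they give neither the exact genotype of the littermates nor the number of pups behind a library. All p-values therefore measure the spread between these libraries. The question addressed is how the transcripts of the cascade stood in retinas of the conditional *Mettl3* knockout at an age when rods are still maturing.

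In a rod, light leads to the activation of transducin, a G protein made of an alpha, a beta and a gamma subunit. The transducin alpha subunit releases the phosphodiesterase PDE6 from its inhibitory gamma subunits, PDE6 hydrolyses cyclic GMP, and the cyclic GMP-gated channel in the outer segment closes. Arrestin then takes part in shutting the response off. Cones run the same sequence of steps with paralogous proteins for nearly all of these parts, and rods switch their own set on after birth in the mouse, under the control of factors that include CRX and NRL.

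To show the regulatory sequence in front of the genes the results turn on, the RefSeq promoter table (build GRCm38.p6) was matched by symbol; it held 6 of the 9 members, namely *Gnb1*, *Gngt1*, *Pde6b*, *Cnga1*, *Cngb1* and *Sag*, and *Gnat1*, *Pde6a* and *Pde6g* had no entry. The 250 bases upstream of the start are printed for the 5 members that had an entry and fell in *Mettl3*-CKO retinas, 5′ to 3′ on the strand of the gene. The start is that of the promoter entry, and the deposited *Gngt1* gene begins at chr6:3993792, inside its printed window. Capitals mark TAATCC, the core bound by CRX and OTX proteins, or its reverse complement GGATTA, and TGCTGA, part of the element bound by NRL and other MAF proteins, or TCAGCA. *Gnb1* lies at chr4:155491111-155491360 on the plus strand, *Gngt1* at chr6:3993758-3994007 on the plus strand, *Pde6b* at chr5:108388123-108388372 on the plus strand, *Cngb1* at chr8:95306586-95306835 on the minus strand and *Sag* at chr1:87803430-87803679 on the plus strand.
Gnb1: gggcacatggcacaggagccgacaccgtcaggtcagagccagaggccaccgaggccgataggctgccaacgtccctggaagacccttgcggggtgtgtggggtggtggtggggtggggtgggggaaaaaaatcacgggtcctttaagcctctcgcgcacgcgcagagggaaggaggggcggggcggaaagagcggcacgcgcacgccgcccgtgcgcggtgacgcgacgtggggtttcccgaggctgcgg
Gngt1: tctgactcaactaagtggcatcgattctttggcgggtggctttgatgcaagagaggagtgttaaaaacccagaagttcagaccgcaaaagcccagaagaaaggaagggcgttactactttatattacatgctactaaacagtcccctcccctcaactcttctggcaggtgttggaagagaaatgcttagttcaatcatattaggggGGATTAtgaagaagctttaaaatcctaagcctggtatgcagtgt
Pde6b: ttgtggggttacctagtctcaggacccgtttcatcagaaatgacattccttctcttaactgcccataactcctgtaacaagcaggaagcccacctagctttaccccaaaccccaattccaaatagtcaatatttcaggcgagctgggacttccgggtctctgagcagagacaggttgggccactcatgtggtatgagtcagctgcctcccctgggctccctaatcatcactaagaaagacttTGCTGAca
Cngb1: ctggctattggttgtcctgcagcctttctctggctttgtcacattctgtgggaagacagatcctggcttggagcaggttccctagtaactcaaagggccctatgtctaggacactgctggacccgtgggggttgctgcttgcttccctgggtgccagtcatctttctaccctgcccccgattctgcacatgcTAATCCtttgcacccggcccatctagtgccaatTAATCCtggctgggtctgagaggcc
Sag: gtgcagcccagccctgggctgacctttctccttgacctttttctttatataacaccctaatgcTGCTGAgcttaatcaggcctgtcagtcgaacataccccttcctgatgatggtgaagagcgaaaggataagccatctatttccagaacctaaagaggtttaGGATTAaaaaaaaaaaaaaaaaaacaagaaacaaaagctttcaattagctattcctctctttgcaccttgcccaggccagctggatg
*Gnb1* holds neither motif in this window. In *Gngt1* the reverse complement GGATTA begins 44 bases before the start. *Cngb1* holds TAATCC at 58 and again at 25 bases before the start, and *Sag* holds GGATTA 87 bases and TGCTGA 187 bases before it. *Pde6b* holds no TAATCC in this window and a TGCTGA 8 bases before the start. Over the full 300-base windows (250 bases before and 50 after the start), TAATCC on either strand was found in 4 of the 6 member promoters and in 7.06% of the 32851 promoters in the table, and TGCTGA in 2 of the 6 and in 19.5% of all. The fourth member with TAATCC was *Cnga1*, 228 bases before its start, and no match of either motif shared a base with another. The deposited *Cnga1* gene, on the minus strand, reaches chr5:72644275, upstream of that window. Of 5 promoters in the table for 4 cone counterparts, 1 held TAATCC and none held TGCTGA. A match of 6 letters is a description of the sequence and not evidence of binding.

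Sequencing depth was similar, with 16227095 to 20281517 counts per library. Over all genes tested, the edgeR quasi-likelihood test with Benjamini-Hochberg adjustment called 1168 higher and 729 lower in the mutant at a threshold of 0.05, around a median log2 fold change of -0.01. *Mettl3* itself stood at 21.1, 29.6, 21.3 and 24.2 CPM (counts per 1000000 counts of a library, scaled by TMM factors) in the *Mettl3*-CKO libraries and at 33.7, 32.4, 29.3 and 29.2 in the control libraries. The difference in *Mettl3* was a log2 fold change of -0.38 (SE 0.12, edgeR adjusted p = 0.0602), which did not pass the threshold, and *Mettl3*-CKO replicate 2 lay inside the range of the controls. Counts over the whole gene do not show what share of the transcripts carried the deletion. Photoreceptor genes differed widely in level: *Crx* lay between 725 and 1275 CPM over the libraries, and *Gnat1* between 5.1 and 20.1 CPM. Control replicate 4 stood apart in its 12 lens markers, with a summed level of 3227 CPM against 7.85 to 69.6 in the other 7 libraries. Control replicate 1 had the highest mitochondrial share, 2.38% against 1.69% to 2.26% elsewhere, and its place in each result is given below.

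Most of the cascade was lower in *Mettl3*-CKO retinas. Of the 9 members, 6 fell at an edgeR adjusted p under 0.05 (*Pde6b*, *Gnat1*, *Sag*, *Gngt1*, *Cngb1* and *Gnb1*) and none rose, where 4.05% of all tested genes fell. *Pde6g*, *Cnga1* and *Pde6a* did not pass the test. The median log2 fold change of the 9 members was -0.73. In 3 members, *Gnb1*, *Pde6b* and *Sag*, each *Mettl3*-CKO library was below each control library, a pattern met by 7.59% of all tested genes.

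**Figure D1:**
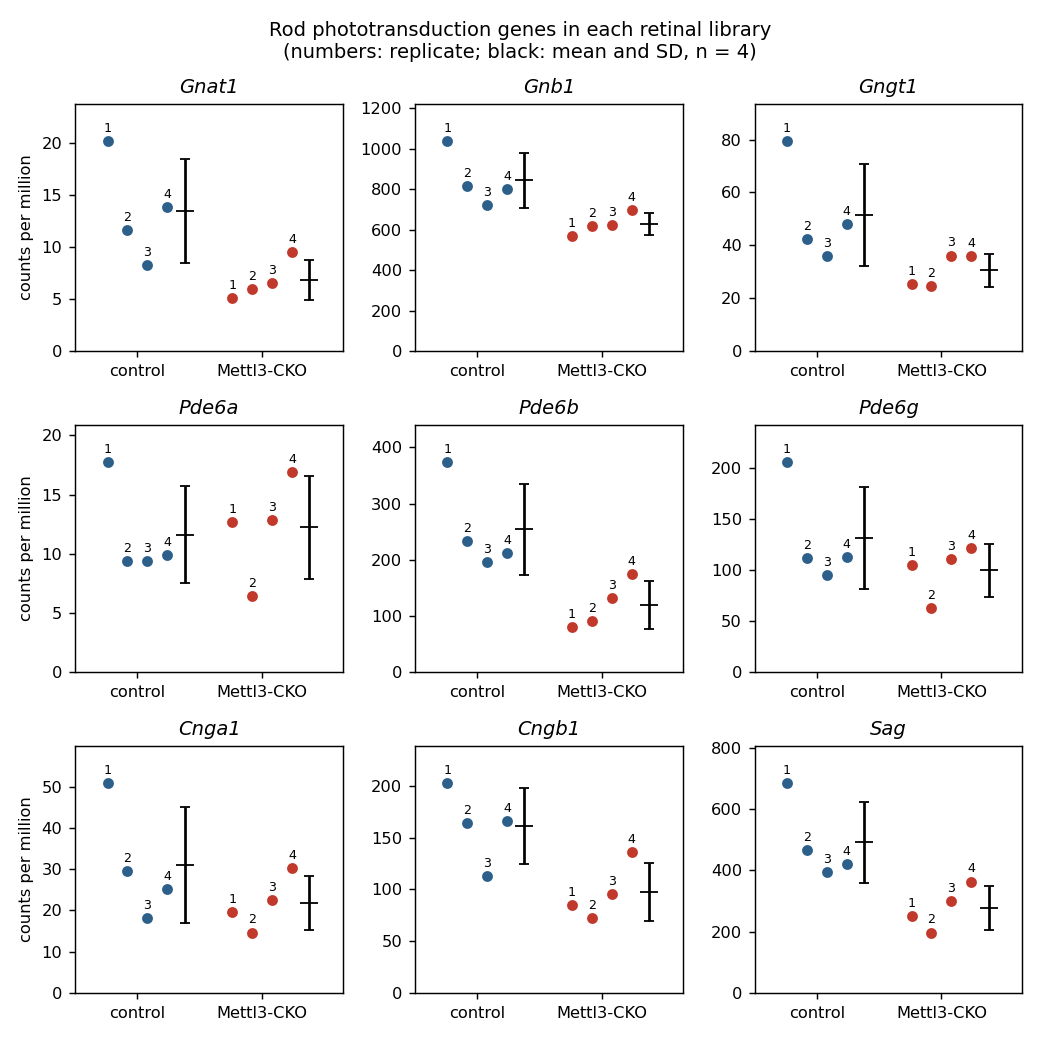
CPM of the 9 rod cascade genes (vertical axes from 0) in the 4 control and 4 *Mettl3*-CKO libraries; each point is 1 library with its replicate number, and the black bar gives the mean and SD of the group. Control replicate 1 was the highest of the 8 libraries in all 9 genes, and the groups were apart in *Gnb1*, *Pde6b* and *Sag*.

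The transducin subunits all fell, the alpha subunit the most. *Gnat1* (ENSMUSG00000034837, chr9:107674474-107679712, minus strand), the rod transducin alpha subunit that activates PDE6, stood at 5.1, 6.0, 6.6 and 9.5 CPM in mutant libraries 1 to 4 and at 20.1, 11.6, 8.3 and 13.8 CPM in control libraries 1 to 4. The groups overlapped because *Mettl3*-CKO replicate 4 was above control replicate 3. The means were 6.78 ± 1.92 and 13.4 ± 4.998 CPM (SD, n = 4 each), a log2 fold change of -0.98 (SE 0.26, edgeR adjusted p = 0.0284), so that the level in the mutant was 50.4% of the control mean. *Gngt1* (ENSMUSG00000029663, chr6:3993792-3997436, plus strand), the rod transducin gamma subunit, read 25.4, 24.5, 36.1 and 35.9 CPM in the mutant libraries and 79.3, 42.3, 36.1 and 48.1 CPM in the controls. Here *Mettl3*-CKO replicates 3 and 4 stood level with control replicate 3, and the log2 fold change was -0.75 (SE 0.22, edgeR adjusted p = 0.0445). *Gnb1* (ENSMUSG00000029064, chr4:155491361-155559269, plus strand), the beta subunit used by rods and by many other cell types, was the most abundant member in CPM. It read 569, 621, 624 and 699 CPM in the mutant against 1037, 816, 722 and 802 CPM in the controls, with no overlap. Its log2 fold change, -0.43 (SE 0.11, edgeR adjusted p = 0.0325), was the smallest among the 6 called members.

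Of the PDE6 subunits, only *Pde6b* was called lower. *Pde6b* (ENSMUSG00000029491, chr5:108388391-108432397, plus strand), the catalytic beta subunit, had the largest fall of the 9: 80.5, 91.0, 132 and 175 CPM in mutant libraries 1 to 4 against 373, 234, 196 and 212 CPM in control libraries 1 to 4. Every mutant library was below every control, and the log2 fold change was -1.09 (SE 0.24, edgeR adjusted p = 0.0150), or 47.1% of the control mean. Its partner *Pde6a* (ENSMUSG00000024575, chr18:61220482-61289924, plus strand), the catalytic alpha subunit, read 12.7, 6.4, 12.9 and 16.9 CPM in the mutant and 17.7, 9.3, 9.4 and 9.9 CPM in the controls. *Mettl3*-CKO replicates 1, 3 and 4 lay above control replicates 2, 3 and 4, with a log2 fold change of 0.08 (95% interval -0.51 to 0.66, edgeR adjusted p = 0.899). *Pde6g* (ENSMUSG00000025386, chr11:120447605-120453500, minus strand), the inhibitory gamma subunit that transducin displaces, read 104, 62.3, 110 and 121 CPM in the mutant against 205, 112, 94.7 and 113 CPM in the controls. Apart from control replicate 1 and *Mettl3*-CKO replicate 2 the *Pde6g* values lay together, and the log2 fold change of -0.40 (95% interval -0.91 to 0.11, edgeR adjusted p = 0.329) did not pass the test. Neither interval shows that the subunit was unaffected, and both include a fall of the size seen in *Gnb1*. The gene *Rps2-ps10*, annotated on the opposite strand within *Pde6a*, held 118 to 367 counts per library but shares no exonic base with it in GENCODE vM21. *Pde6a* was the sole member whose deposited coordinates differ from GENCODE vM21, so the exons counted may differ from those checked. Whether strand was used in counting is not given in the sources used here.

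The channel subunits and arrestin were lower on average. *Cngb1* (ENSMUSG00000031789, chr8:95239045-95306585, minus strand) encodes the modulatory beta subunit of the rod channel and, from the same locus, glutamic acid-rich proteins that gene-level counts do not separate. It read 84.8, 72.3, 95.2 and 137 CPM in the mutant and 203, 164, 113 and 166 CPM in the controls, where only *Mettl3*-CKO replicate 4 reached into the control range. The log2 fold change of *Cngb1* was -0.73 (SE 0.19, edgeR adjusted p = 0.0315). *Cnga1* (ENSMUSG00000067220, chr5:72603696-72644275, minus strand), the subunit that forms the pore, read 19.7, 14.6, 22.6 and 30.4 CPM against 50.8, 29.6, 18.2 and 25.1 CPM. Its groups ran through each other, and a log2 fold change of -0.50 (95% interval -1.10 to 0.10, edgeR adjusted p = 0.291) did not pass. *Sag* (ENSMUSG00000056055, chr1:87803680-87845158, plus strand), rod arrestin, read 250, 197, 299 and 364 CPM in the mutant and 685, 468, 396 and 420 CPM in the controls. The groups did not overlap, with a log2 fold change of -0.83 (SE 0.19, edgeR adjusted p = 0.0187) and a level of 56.4% of the control mean. In bulk tissue, fewer rods and less RNA per rod cannot be told apart for any of these genes.

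The size of the falls, though not which genes were called, depended on control replicate 1. That library was 1.33 times (*Gnb1*) to 2.09 times (*Cnga1*) the mean of the other 3 controls. Without it, the same 6 members were called lower, against a background of 7.07% of tested genes, and the median log2 fold change of the 9 members was -0.46. *Pde6b* then stood at -0.84 (edgeR adjusted p = 0.00718), *Sag* at -0.62 (0.00914), *Gnat1* at -0.72 (0.0269), *Cngb1* at -0.60 (0.0258), *Gngt1* at -0.46 (0.0332) and *Gnb1* at -0.31 (0.0217), each as log2 fold change with its adjusted p. *Pde6a* moved to 0.36 (edgeR adjusted p = 0.287), *Pde6g* to -0.10 (0.722) and *Cnga1* to -0.15 (0.654). *Gnb1*, *Pde6b* and *Sag* remained the 3 members without overlap, a pattern then met by 12.6% of tested genes.

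The calls also depended on other libraries. Without *Mettl3*-CKO replicate 1, none of the 9 members passed (1.01% of all tested genes then fell), although 8 had a negative log2 fold change, 6 had an unadjusted edgeR p under 0.05 and DESeq2 on all 8 libraries called the same 6 lower (5.48% of its tested genes fell). The log2 fold changes without that library were -0.93 for *Pde6b* (edgeR adjusted p = 0.0667) and -0.77 for *Sag* (edgeR adjusted p = 0.0844). *Pde6b* and *Sag* alone were called without *Mettl3*-CKO replicate 2 (2.22% of tested genes fell), without *Mettl3*-CKO replicate 3 (1.83%), without control replicate 2 (1.91%) and without control replicate 4 (2.54%). All 6 stayed called without control replicate 3 (450 of 18125 tested genes fell), and 5 did without *Mettl3*-CKO replicate 4 (583 of 18222 fell).

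**Figure D2:**
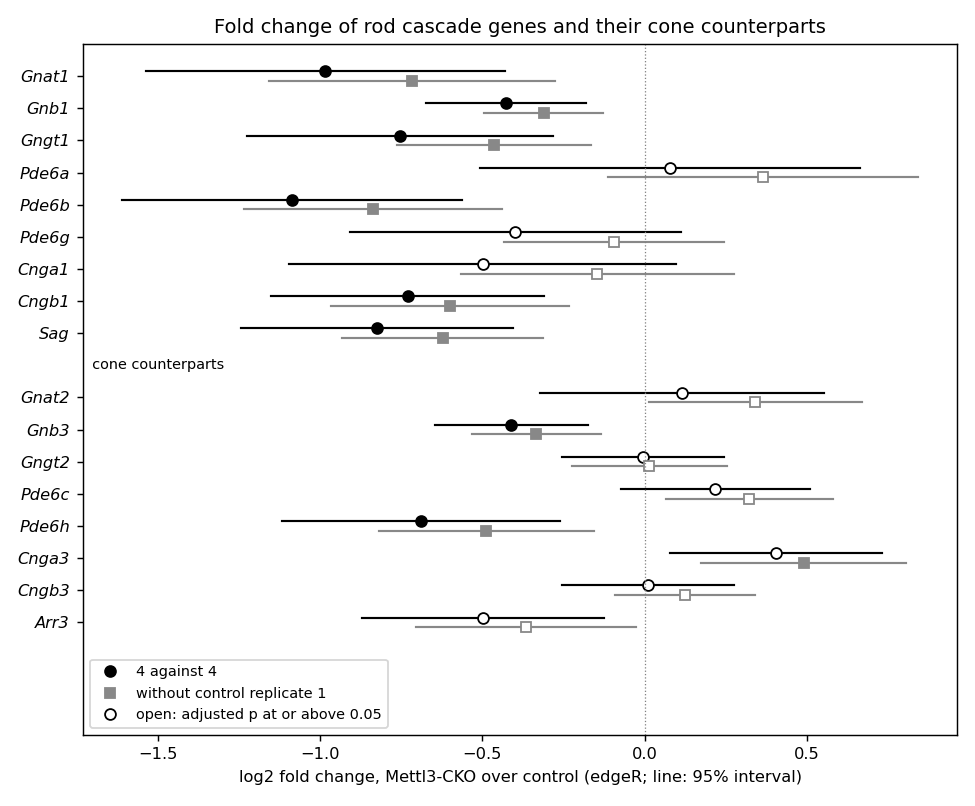
Log2 fold change of *Mettl3*-CKO over control (horizontal axis) with its 95% interval for the 9 rod genes and 8 cone counterparts, from all 8 libraries (black circles) and without control replicate 1 (grey squares); filled symbols passed an adjusted p under 0.05. *Pde6b* lay farthest to the left at -1.09 and *Pde6a* nearest to 0 among the rod genes at 0.08.

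The libraries of a group kept nearly the same order from gene to gene. Control replicate 1 was the highest of the 8 libraries in 9 of 9 members, and control replicate 3 was the lowest control in 8 of 9. Among the mutant libraries, *Mettl3*-CKO replicate 4 was the highest in 8 of 9 members, while the lowest of all 8 libraries was *Mettl3*-CKO replicate 2 in 6 members and *Mettl3*-CKO replicate 1 in 3. Summed over the 9 genes, the mutant libraries 1 to 4 held 1151, 1095, 1339 and 1587 CPM and the control libraries 2671, 1886, 1594 and 1809 CPM. *Mettl3*-CKO replicate 4 and control replicate 3 thus met at nearly the same summed level. A large part of the sum was *Gnb1*, which many other cell types also use. Without *Gnb1*, *Mettl3*-CKO replicate 4 held 889 CPM and control replicate 3 held 871 CPM, so that the groups overlapped. The profile of each member over the 8 libraries was compared with the median standardized profile of all 9, and Pearson's r ran from 0.980 (*Sag*) and 0.976 (*Gngt1*) down to 0.884 (*Pde6g*) and 0.558 (*Pde6a*). These r values describe 8 libraries that share depth and group, and each member is part of the median.

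Proliferation markers differed between the groups in the opposite direction. Their 12 genes, among them *Mki67*, a protein of cycling cells, were all on the higher side in *Mettl3*-CKO retinas, and 5 of the 12 rose, where 6.49% of all tested genes rose. The count was 8 without *Mettl3*-CKO replicate 4 (991 of 18222 tested genes rose) and 2 without *Mettl3*-CKO replicate 1 (509 of 18329 rose). It was 3 without *Mettl3*-CKO replicate 2 (962 of 18441) or 3 (790 of 18219) or without control replicate 4 (839 of 18303). *Mki67* had the largest change of the list, from 458 ± 46.4 CPM in controls to 903 ± 150 CPM in the mutant (SD, n = 4 each), a log2 fold change of 0.98 (SE 0.12, edgeR adjusted p = 7.018e-04). Summed over the 12 markers, the mutant libraries 1 to 4 held 4070, 4203, 3725 and 3036 CPM and the control libraries 2272, 3018, 2779 and 2747 CPM. Control replicate 1, the highest library in rod genes, was the lowest in these markers, and *Mettl3*-CKO replicate 2, the lowest in summed rod genes, was the highest. The order was not opposite among control replicates 2 to 4, where control replicate 2 was the highest in both sums. What part the mix of cell types had in the rod result was not tested.

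**Figure D3:**
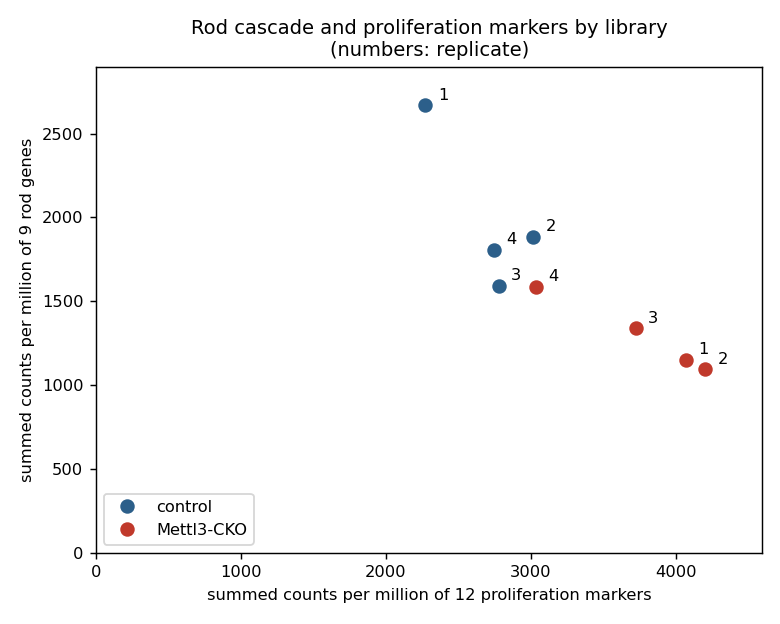
Summed CPM of the 9 rod genes (vertical axis) against the summed CPM of 12 proliferation markers (horizontal axis) in each library, with both axes from 0 and replicate numbers beside the points. Control replicate 1 sits at 2272 and 2671 CPM, *Mettl3*-CKO replicate 2 at 4203 and 1095 CPM. A large part of the rod sum was *Gnb1*.

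Of the 10 cone phototransduction genes listed, 9 passed the filter and 2 fell, around a median log2 fold change of -0.01, and none rose, where 4.05% of all tested genes fell and 6.49% rose. No cone gene was called lower without *Mettl3*-CKO replicate 1, without *Mettl3*-CKO replicate 2 or without control replicate 4, and 1 was without control replicate 2. In these fits 1.01% to 2.54% of all tested genes fell. *Opn1mw*, the middle-wavelength cone opsin, was left out with at most 6 counts in a library. The 2 that fell were *Gnb3*, the cone transducin beta subunit, at -0.41 (SE 0.11, edgeR adjusted p = 0.0306), and *Pde6h*, the cone PDE6 inhibitory subunit, at -0.69 (SE 0.20, edgeR adjusted p = 0.0431). *Gnat2*, the cone transducin alpha subunit, had a log2 fold change of 0.12, *Pde6c*, the cone catalytic subunit, of 0.22, *Gngt2*, the cone gamma subunit, of -0.01, and *Cngb3*, the cone channel beta subunit, of 0.01, with edgeR adjusted p from 0.354 to 0.985. *Cnga3*, the cone channel alpha subunit, read 17.8, 12.9, 12.6 and 13.1 CPM in the mutant against 12.4, 11.5, 9.3 and 9.4 CPM in the controls. Its log2 fold change of 0.40 did not pass (edgeR adjusted p = 0.112), but it did without control replicate 1, at 0.49 (edgeR adjusted p = 0.0333). *Arr3*, cone arrestin, stood at 8.76 ± 1.93 CPM in the mutant and 12.4 ± 2.19 CPM in controls (SD, n = 4 each), a log2 fold change of -0.50 (edgeR adjusted p = 0.0856).

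To test whether a rod gene fell more than its cone counterpart, the log2 ratio of their CPM was taken within each library and compared between groups with a two-sided exact permutation test. Together with the 6 ratios between rod subunits below, 15 ratios were tested, and several share a gene. With 4 libraries against 4 the smallest possible p is 0.0286, and after Benjamini-Hochberg adjustment over the 15 ratios the lowest value was 0.0857, so that none of the 15 passed. The rod-to-cone ratio was lower on average in *Mettl3*-CKO retinas for 8 of the 9 pairs. In 3 pairs each mutant library was below each control.

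The largest of these differences was in the catalytic PDE6 pair. The log2 ratio of *Pde6b* to *Pde6c* was 1.34, 1.96, 1.94 and 2.55 in mutant libraries 1 to 4 and 3.59, 3.18, 3.13 and 3.16 in control libraries 1 to 4. The group means differed by -1.32 (exact permutation p = 0.0286, adjusted p = 0.0857). For the transducin alpha subunits, the log2 ratio of *Gnat1* to *Gnat2* was -3.10, -2.12, -2.86 and -2.05 in the mutant and -1.38, -1.56, -1.79 and -1.17 in the controls, a difference of -1.06 (exact permutation p = 0.0286, adjusted p = 0.0857). The arrestin pair differed less. The log2 ratio of *Sag* to *Arr3* was 4.99, 4.78, 5.08 and 4.98 in the mutant and 5.45, 5.27, 5.20 and 5.20 in the controls, a difference of -0.32 (exact permutation p = 0.0286, adjusted p = 0.0857). The transducin gamma pair (-0.69), the channel alpha pair (-0.84) and the channel beta pair (-0.75) overlapped because *Mettl3*-CKO replicate 4 lay above control replicate 3, each with an exact permutation p of 0.0571. Without *Mettl3*-CKO replicate 4, and likewise without control replicate 3, 6 of the 9 ratios were lower without overlap. Without control replicate 1 it was 3 of the 9, with 7 lower on average and none at an exact permutation p under 0.05. The beta pair *Gnb1* to *Gnb3* differed by -0.01 (exact permutation p = 0.971), *Pde6a* to *Pde6c* by -0.16 (exact permutation p = 0.486) and *Pde6g* to *Pde6h* by 0.30 (exact permutation p = 0.200), the sole pair whose mean was higher in the mutant.

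Within the rod complexes, the ratios that set PDE6 subunits against *Pde6b* were apart between the groups. The log2 ratio of *Pde6a* to *Pde6b* was -2.65, -3.80, -3.35 and -3.36 in mutant libraries 1 to 4 and -4.39, -4.63, -4.37 and -4.41 in control libraries 1 to 4, a difference of 1.16. The log2 ratio of *Pde6g* to *Pde6b* was 0.37, -0.55, -0.26 and -0.53 in the mutant and -0.86, -1.07, -1.04 and -0.92 in the controls, a difference of 0.73. In both, each mutant library was above each control (exact permutation p = 0.0286 and adjusted p = 0.0857 for either), and the SD over the 4 controls was 0.12 and 0.10 against 0.47 and 0.43 over the 4 mutants. Control replicate 1, which stood out in the level of all 3 genes, lay within the other controls in the first ratio and next to them in the second. Within transducin, the log2 ratio of *Gnat1* to *Gnb1* differed by -0.53 (exact permutation p = 0.0571) and that of *Gnat1* to *Gngt1* by -0.23 (exact permutation p = 0.171). The channel ratio *Cnga1* to *Cngb1* differed by 0.29 (exact permutation p = 0.171) and *Sag* to *Gnat1* by 0.12 (exact permutation p = 0.571). Without control replicate 1 the channel ratio also ceased to overlap, so that 3 of the 6 ratios did.

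**Figure D4:**
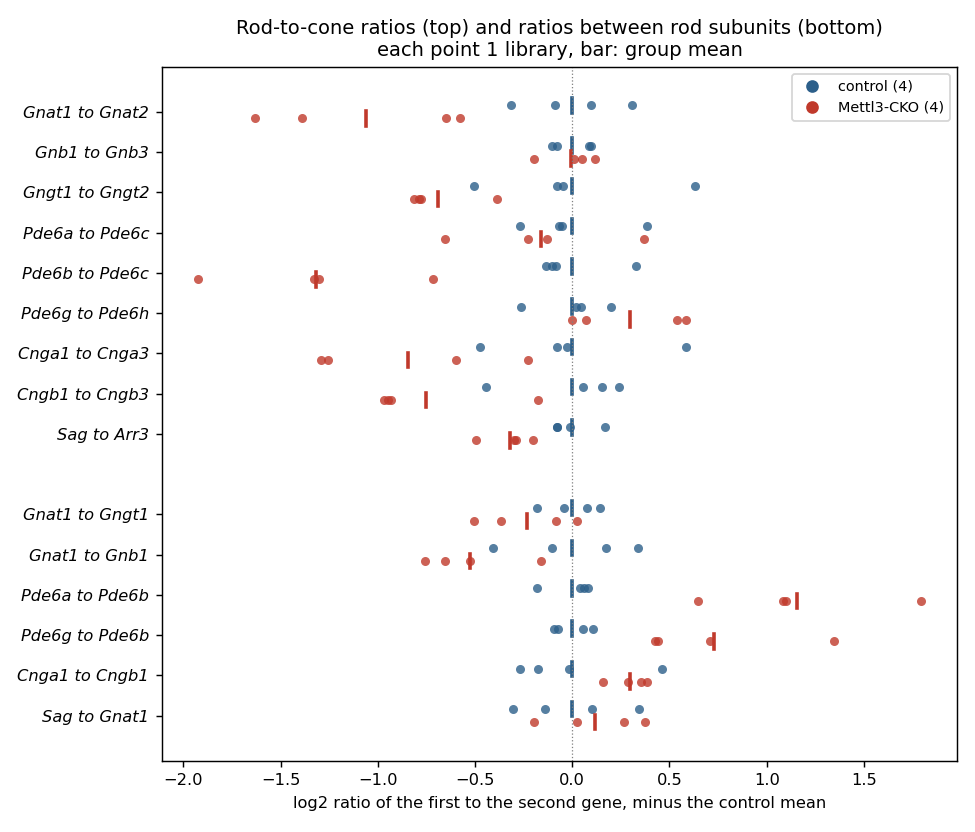
Log2 ratio of the first to the second gene in each library, minus the control mean of that ratio (horizontal axis), for 9 rod-to-cone pairs (top) and 6 pairs of rod genes (bottom); each point is 1 library and each bar a group mean. *Pde6b* to *Pde6c* lay lowest in the mutant, with a mean of -1.32, and *Pde6a* to *Pde6b* highest, with a mean of 1.16.

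Other photoreceptor genes were read from lists beside the members. Among 21 other genes of the rod photoresponse, 2 fell and none rose (median log2 fold change -0.36), where 4.05% of all tested genes fell. Without control replicate 1, 3 of them fell and 1 rose, around a median of -0.25, where 7.07% of all tested genes fell and 1882 of 18235 rose. The count of genes that fell was 5 without *Mettl3*-CKO replicate 4 (583 of 18222 tested genes fell) and with DESeq2 (5.48%). It was 8 with no filter on low counts (819 of 34486). It was 1 with any single one of *Mettl3*-CKO replicates 1 to 3 left out or without control replicate 2 or 4. In those fits 1.01% to 2.54% of all tested genes fell. The larger of the 2 was in *Unc119*, which binds the lipid anchor of the transducin alpha subunit: 180, 188, 214 and 237 CPM in the mutant against 422, 326, 276 and 310 CPM in controls, with no overlap, and a log2 fold change of -0.70 (SE 0.13, edgeR adjusted p = 0.00566). *Grk1*, a kinase that acts in the recovery of the photoresponse, had a log2 fold change of -0.47 (edgeR adjusted p = 0.131) and *Rcvrn*, recoverin, the calcium sensor that restrains it, of -0.10 (edgeR adjusted p = 0.753).

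Of 12 photoreceptor transcription factors, 6 fell and none rose (median log2 fold change -0.39), where 4.05% of all tested genes fell. The count was 8 without control replicate 1, where 7.07% of all tested genes fell, and 3 without *Mettl3*-CKO replicate 1, where 1.01% fell. It was 4 without control replicate 2 (1.91%), 3 (450 of 18125 genes) or 4 (2.54%) or *Mettl3*-CKO replicate 2 (2.22%). *Nrl*, the factor that sets rod identity, read 371, 364, 474 and 561 CPM in the mutant against 960, 668, 641 and 785 CPM in controls, with no overlap (log2 fold change -0.79, SE 0.16, edgeR adjusted p = 0.00861). *Nr2e3*, its target that represses cone genes in rods, read 490, 486, 664 and 826 CPM against 1164, 1066, 996 and 1110 CPM (log2 fold change -0.81, SE 0.15, edgeR adjusted p = 0.00615). *Crx*, shared by rods and cones, fell by 0.42 on the log2 scale (SE 0.12, edgeR adjusted p = 0.0374), and *Samd11* had the largest change in the list, -0.88 (SE 0.16, edgeR adjusted p = 0.00613). *Nrl* and *Nr2e3* passed the test whichever single library was dropped (8 fits). Another list held 12 genes of outer segment discs, the connecting cilium and the matrix around photoreceptors. Of these 12, 4 fell and none rose (median log2 fold change -0.48), where 4.05% of all tested genes fell. The count was 1 to 5 when 1 library was left out, where 1.01% to 7.07% of all tested genes fell. It was 1 with any single one of *Mettl3*-CKO replicates 1 to 3 left out or without control replicate 2, and 2 without control replicate 4. The list had the largest change in *Impg1*, a proteoglycan of the matrix around photoreceptors, at -0.87 (SE 0.23, edgeR adjusted p = 0.0315).

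**Figure D5:**
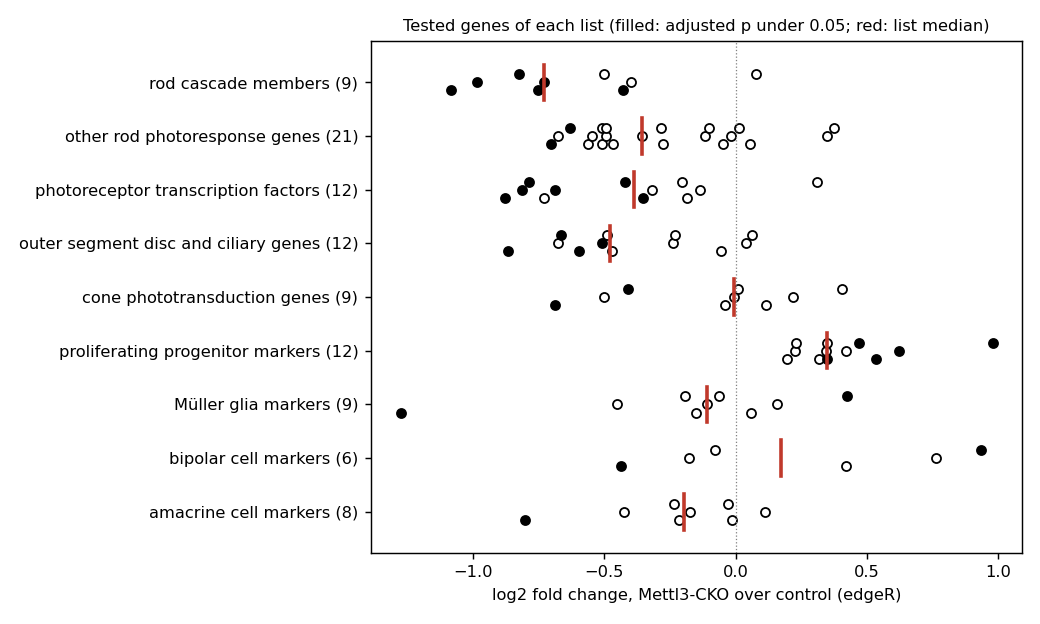
Log2 fold change of *Mettl3*-CKO over control (horizontal axis) for the tested genes of each list, with the number tested in brackets; each point is 1 gene, filled where the adjusted p was under 0.05, and the red bar is the list median. The rod cascade had its median at -0.73, the proliferation markers at 0.35 and the cone genes at -0.01.

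The level of a member per kilobase depended on the gene length used. Levels per kilobase were taken on library totals, without TMM factors. With the lengths in the deposited table, control retinas held *Gnb1* at 197 ± 28.0 CPM per kilobase (SD, n = 4), then *Pde6g* (56.1), *Sag* (54.9), *Pde6b* (50.1), *Cngb1* (17.2), *Gngt1* (14.5), *Cnga1* (4.85), *Gnat1* (4.41) and *Pde6a* (2.54). *Pde6g* and *Sag* were not separated, each being the higher in 2 of the 4 controls, and *Cngb1* was above *Gngt1*, as *Cnga1* above *Gnat1*, in 3 of 4. The table gives *Sag* a length of 8904 bases, all annotated exons together, against 1719 bases for its principal transcript in GENCODE vM21. With principal transcripts, a choice made after seeing the data, *Sag* stood first at 284 CPM per kilobase, above *Gnb1* (267) in only 3 of the 4 controls, *Gngt1* (43.2) passed *Cngb1* (25.9), and *Cnga1* (11.2), *Gnat1* (5.74) and *Pde6a* (2.51) remained the lowest 3. In either order *Pde6a*, the partner of *Pde6b* in the catalytic dimer, was far below it.

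Across all genes, the patterns most like that of the members included several other photoreceptor genes. Among 14304 non-member genes with a mean log2 CPM of at least 1, the 8 whose log2 CPM over the 8 libraries correlated best with the median member profile were *Rom1* (Pearson's r 0.992), *Il11ra1* (0.987), *Pdc* (0.982), *Rdh12* (0.979), *Prph2* (0.979), *Arr3* (0.979), *Rftn2* (0.978) and *Reep6* (0.978). *Rom1* and *Prph2* are tetraspanins of the outer segment disc rim, *Pdc* (phosducin) binds transducin beta and gamma, *Rdh12* is a retinol dehydrogenase of photoreceptors, and *Reep6* is a membrane trafficking protein of rods. Of these 8, *Rom1* (log2 fold change -0.67) and *Reep6* (-0.63) fell at edgeR adjusted p of 0.0307 and 0.0448, and the other 6 had log2 fold changes of -0.68 to -0.38 with adjusted p from 0.0568 to 0.206. The likeness follows the order of only 8 libraries and is given as a description.

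Markers of other cells moved with the groups as well. Of 9 tested vascular markers 7 fell, of 9 tested pigment epithelium markers 4 fell and 1 rose, and of 3 tested erythrocyte markers 2 fell. Of all tested genes 4.05% fell and 6.49% rose. With any single one of *Mettl3*-CKO replicates 1 to 3 left out the vascular count was 2, where 1.01% to 2.22% of all tested genes fell. Over the leave-outs the pigment epithelium count ran from 1 (without *Mettl3*-CKO replicate 1) to 4, where 1.01% to 7.07% of all tested genes fell. The 7 vascular genes called stood at 20.4% (*Tie1*) to 50.7% (*Cldn5*) of the control mean. In each of the 7 control replicate 1 was the highest library, at up to 3.64 times (*Tie1*) the mean of the other controls. Without control replicate 1, 6 vascular markers were called lower, where 7.07% of all tested genes fell. The same 7 genes then stood at 33.9% (*Tie1*) to 67.0% (*Cldn5*) of the control mean. The summed level ran from 537 to 633 CPM in the mutant and 556 to 650 CPM in controls for the vascular list, from 56.8 to 80.1 and 80.4 to 113 CPM for pigment epithelium, and from 4.28 to 7.17 and 13.9 to 26.3 CPM for erythrocytes. Nearly all of the vascular sum was *Kdr*, a receptor that neural cells of the retina also express, at 523 to 615 CPM in the mutant and with a log2 fold change of 0.02, so that the sum does not follow the 7 genes that fell. *Cldn5* and *Kdr* were named after their values were seen. The defining pigment epithelium gene *Rpe65* had at most 14 counts and was at 0 in 2 libraries. Of 8 tested lens markers 4 were called lower, and none without control replicate 4, where 2.54% of all tested genes fell. None of these lists shares a gene with the members, and their part in the rod result was not tested.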

How the data were processed

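Bulk RNA-seq had been performed by the authors on 4 *Mettl3*-CKO and 4 control mouse retinal samples. Per the labels and the study's methods, RNA was extracted with TRIzol, libraries were made with the NEBNext Ultra kit, and reads were mapped to GRCm38 (mm10) with HISAT2 and counted per gene with featureCounts. The annotation release and the strand setting are not given in the sources used here. The deposited values are raw counts for 54532 genes, and the gene lengths are those the authors deposited. From these counts, genes were filtered with filterByExpr, scaled by TMM and tested with edgeR 4.0.16 (quasi-likelihood) in R 4.3.3, with Benjamini-Hochberg adjustment over all tested genes and a threshold of 0.05. Intervals of 95% come from the fitted SE and its degrees of freedom. Alternatives were DESeq2 1.42.0, the voom method of limma 3.58.1 with quality weights, other scaling, no filter and each library left out. Ratios used log2 CPM with a prior count of 2 and an exact permutation test. On simulated data for this comparison, with 200 changed genes among 17714 tested, edgeR recovered 97.8% at a 4-fold and 72.9% at a 2-fold change. The common biological coefficient of variation was 15%. No pair of libraries within a group was alike within sampling noise. A count of 0 allows up to 3 counts, or 0.148 to 0.185 CPM, which covers counting error only. Named genes are the members, their cone counterparts, *Mettl3*, fixed photoreceptor genes (1 of which is not reported here), the called gene with the largest change in each list and the 8 genes most like the members. The members and lists were chosen with earlier results of these data known. Promoter sequences are from RefSeq. The labels give the age as day 7, and the study's methods give an age that is 1 day younger.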

Additional observations from a re-analysis of the deposited data

Results flagged for a closer look

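Each of the 9 members and 8 cone counterparts was checked in each group of 4 for a library far from the other 3 (gap to the nearest over the range above Dixon's 95% critical value). Of 34 such groups 3 held one, where chance gives about 1.7. *Pde6a* in control replicate 1 stood at 4.1566 log2 CPM, against 3.24 to 3.32 in the other controls. *Gngt2* in control replicate 2 stood at 7.8518 log2 CPM, below the next control at 8.07. *Cnga3* in *Mettl3*-CKO replicate 1 stood at 4.1645 log2 CPM, above the next mutant at 3.72. The log2 fold change of *Pde6a* was 0.08 with and 0.36 without control replicate 1, and that of *Cnga3* was 0.40 with and 0.28 without *Mettl3*-CKO replicate 1, neither value passing the edgeR threshold.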

How the results depend on the processing

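The 6 members called lower stayed 6 with DESeq2 (1010 genes lower in all), RLE factors (744), library totals alone (708) and no filter on low counts (819), and were 5 with limma voom (1568), against 729 genes lower in the reported fit. At an adjusted p under 0.01 the count was 0. Leaving out 1 library gave 0 to 6 members. The replicate numbers did not pair the libraries (correlations of same-numbered deviations -0.111, 0.215, -0.114 and 0.249), and a fit with the replicate block called 4 members (*Gnat1*, *Pde6b*, *Cngb1* and *Sag*) and 661 genes lower in all. Taken as same-numbered pairs of libraries, 6 rod-to-cone ratios were lower in the mutant in all 4 pairs. In 4 subunit ratios all 4 pairs went in 1 direction. These are counts over pairs, and the groups overlapped in some of these ratios. Leaving out 1 library gave 3 to 6 rod-to-cone ratios lower without overlap and 2 to 3 subunit ratios without overlap. Signs turned in 6 differences. The log2 fold change of *Pde6a* ran from -0.12 to 0.36 when 1 library was left out, that of *Gngt2* from -0.1334 to 0.0685 (0.0414 with limma voom, 0.0037 with library totals alone), that of *Cngb3* from -0.0631 to 0.1238 and that of *Rcvrn* from -0.1966 to 0.0366 (0.0779 with limma voom). The log2 ratio difference of *Gnb1* to *Gnb3* ran from -0.0468 to 0.0582 and that of *Pde6a* to *Pde6c* from -0.34 to 0.0035. The other 8 members kept a negative log2 fold change in every fit run. With 4 libraries against 4, a ratio could not pass after adjustment over 15 tests unless more of them had reached the smallest p.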

Other observations

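Among markers of retinal cells other than photoreceptors, calls went in both directions, where 4.05% of all tested genes fell and 6.49% rose. Of 9 tested Müller glia markers, *Rlbp1*, the retinaldehyde-binding protein of Müller glia, read 71.4, 77.2, 108 and 121 CPM in mutant libraries 1 to 4 against 341, 192, 192 and 191 CPM in control libraries 1 to 4, a log2 fold change of -1.28 (SE 0.21, edgeR adjusted p = 0.00305), while *Glul*, glutamine synthetase, rose by 0.43 (SE 0.08, edgeR adjusted p = 0.00865). *Glul* was named after its value was seen. The other 7 tested Müller markers did not pass, and the median of the list was -0.11. *Rlbp1* thus fell by more on the log2 scale than any rod cascade member. Among 6 tested bipolar cell markers 1 rose and 1 fell. *Pcp2*, a protein of bipolar cells, rose from 2.63 ± 0.52 to 5.02 ± 1.12 CPM (SD, n = 4 each; log2 fold change 0.94, SE 0.22, edgeR adjusted p = 0.0187). Of 8 amacrine cell markers, only *Slc6a9*, the glycine transporter, was called, at -0.80 (SE 0.11, edgeR adjusted p = 0.00104), with every mutant library (42.2 to 58.9 CPM) below every control (77.3 to 91.1 CPM). The largest changes in the lists of other tissues were in *Ttr*, transthyretin of the pigment epithelium (log2 fold change -1.19), *Tie1*, an endothelial receptor (-2.28), *Hba-a1*, alpha globin (-2.65), and *Cryba1*, a lens crystallin (-7.20), with edgeR adjusted p of 0.00134, 0.0148, 4.51e-04 and 0.0344. Control replicate 4 held 621 CPM of *Cryba1*, and the next highest library 9.02 CPM, and without control replicate 4 its log2 fold change was -1.69 and was not called.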
